A study of Mus musculus with 12 samples.

Results

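Fgf23, which encodes a phosphate-regulating hormone, and 5 genes of cellular phosphate transport were followed across 12 RNA sequencing libraries of mouse Ba/F3 cells. The 6 genes, of 55471 in the gene count table, were Fgf23, Slc34a3, Slc34a2, Slc20a1, Slc20a2 and Xpr1. They were picked because Fgf23 was high and Slc34a3 low with BCR-ABL1, so the values of BCR-ABL1 cells against vector cells are descriptions and carry no test. A filter on low counts kept 17197 genes, among them 5 of the 6, and left out Slc34a2. Ba/F3 is a mouse pro-B cell line that normally depends on interleukin-3 (IL-3). Each group held 4 independent lines. BCR-ABL1 lines expressed the fusion of BCR with the ABL1 tyrosine kinase, and SFPQ-ABL1 lines the fusion of SFPQ with ABL1, both without IL-3. MSCV lines held only the retroviral vector, with no insert, and their medium had IL-3 at 0.5 ng/ml. Fusion and absence of IL-3 therefore cannot be told apart in either comparison with MSCV, whereas SFPQ-ABL1 against BCR-ABL1 holds no difference in IL-3.

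FGF23 is a circulating hormone made mainly by osteocytes and osteoblasts of bone. In the kidney it acts through FGF receptors with the co-receptor Klotho, lowers the sodium-phosphate cotransporters of the proximal tubule and so increases phosphate loss in urine, and it also lowers active vitamin D. The SLC34 family carries phosphate with sodium across epithelia: SLC34A3 (NaPi-IIc) in the kidney proximal tubule and SLC34A2 (NaPi-IIb) in intestine and lung. SLC20A1 (PiT-1) and SLC20A2 (PiT-2) import phosphate with sodium in most cell types, and XPR1 exports phosphate from cells.

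Gene totals ran from 59355018 to 80616227 counts, so that 1 CPM (counts scaled to library size with TMM factors) stood for 61.1 to 82.2 counts. Counting intervals below cover counting error only. An exon of mouse Abl1 with reads of both fusions (chromosome 2, 31796973 to 31797062, mm10) served as a check of the labels. It had 9.23 to 20.8 CPM in BCR-ABL1 lines, 4.36 to 26.8 in SFPQ-ABL1 lines and 0.0454 to 0.0529 in MSCV lines. BCR-ABL1 line 4 held the highest value of its group and SFPQ-ABL1 line 2 the lowest of its own, and results that changed without these lines are given both ways. Of 10 early B genes, Cd79a and Cd79b exceeded 5 CPM in a group, Il7r had no count in any library, and Ebf1, Pax5, Rag1 and Dntt had at most 23 counts each over all libraries. The summed level of the early B genes was 49.1 to 71.9 CPM in BCR-ABL1 lines, 85.1 to 98.7 in SFPQ-ABL1 lines and 130 to 152 in MSCV lines. In such bulk samples fewer cells of a type and less RNA per cell cannot be told apart.

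The start regions of the 2 genes that led to the choice are shown so that the motif matches can be seen in place. They run from 250 bases before to 50 bases after the annotated start (RefSeq, GRCm38.p6), 5′ to 3′ on the strand of the gene, with motif matches in capitals. The Fgf23 window is chr6:127072652-127072951 on the plus strand, and the Slc34a3 window is chr2:25234185-25234484 on the minus strand.
Fgf23: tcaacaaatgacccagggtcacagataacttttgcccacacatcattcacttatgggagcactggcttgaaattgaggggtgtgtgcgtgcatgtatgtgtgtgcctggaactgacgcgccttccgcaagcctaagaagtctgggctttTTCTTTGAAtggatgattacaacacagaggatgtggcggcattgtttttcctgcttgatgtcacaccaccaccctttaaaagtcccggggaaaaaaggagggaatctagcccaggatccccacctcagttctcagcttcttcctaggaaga
Slc34a3: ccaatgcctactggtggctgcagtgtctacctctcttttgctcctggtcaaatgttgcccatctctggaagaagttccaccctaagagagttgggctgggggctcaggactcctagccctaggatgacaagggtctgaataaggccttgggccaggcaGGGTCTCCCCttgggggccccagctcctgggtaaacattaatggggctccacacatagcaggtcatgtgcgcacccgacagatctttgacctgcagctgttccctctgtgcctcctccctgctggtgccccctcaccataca
In the table of start regions, 5 of the 6 genes had an entry, all except Slc20a2. Both strands were searched for TTCNNNGAA (STAT), TGANTCA (AP-1), TGATGNAA (C/EBP-ATF composite) and GGG and CC parted by any 5 bases (NF-kB), which 8.33%, 7.79%, 3.91% and 51.0% of 32544 windows held. The Fgf23 window held a match to the STAT letters, starting 101 bases before the gene start, and none to the other motifs. The Slc34a3 window held a match to the NF-kB letters alone, starting 92 bases before the RefSeq start. The GENCODE start of the coding transcript, 25234364, lies further upstream, so the match falls inside the first exon of that transcript. The Slc20a1, Xpr1 and Slc34a2 windows also held the NF-kB letters alone. The GC share was 49.0% for Fgf23 and 57.7% for Slc34a3, against a median of 53.0% over all windows.

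Fgf23 (ENSMUSG00000000182, chromosome 6, 127072902 to 127081408, mm10) was the member with the widest range on the log2 scale. It stood at 4.08, 8.83, 10.4 and 40.6 CPM in BCR-ABL1 lines 1 to 4, at 0.067, 0.481, 0.182 and 0.458 CPM in SFPQ-ABL1 lines 1 to 4, and at 0.151, 0.013, 0.053 and 0.368 CPM in MSCV lines 1 to 4. Every BCR-ABL1 line lay above every other line, BCR-ABL1 line 4 lay well above the remaining BCR-ABL1 lines, and the SFPQ-ABL1 and MSCV lines overlapped. The group means were 16.0 ± 16.6 CPM with BCR-ABL1, 0.297 ± 0.205 with SFPQ-ABL1 and 0.146 ± 0.159 with MSCV (SD, n = 4 each). The counts behind them were 4255 in all BCR-ABL1 lines, 85 in SFPQ-ABL1 lines and 41 in MSCV lines. BCR-ABL1 cells held 111-fold more than MSCV cells (log2 fold change 6.80 ± 0.94 SE), place 10 from the highest among the 17197 genes. The fold was 53.8 without BCR-ABL1 line 4 and 212 without MSCV line 4. SFPQ-ABL1 cells were at a log2 fold change of -5.76 ± 0.87 SE relative to BCR-ABL1 cells, and of -4.72 without BCR-ABL1 line 4.

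**Figure D1:**
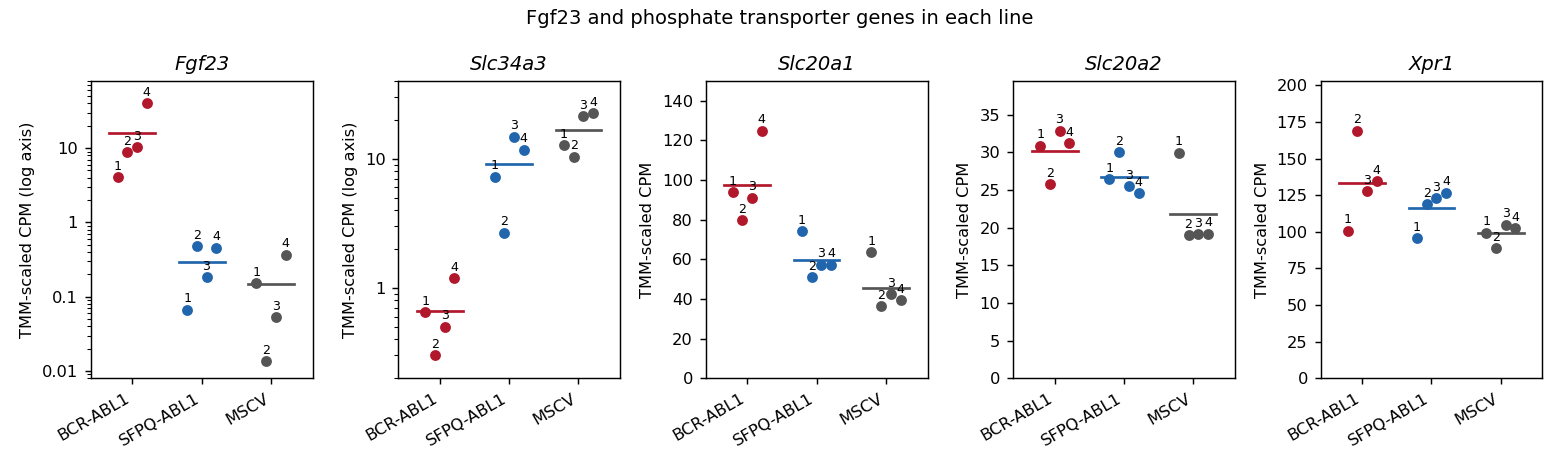
TMM-scaled CPM of Fgf23, Slc34a3, Slc20a1, Slc20a2 and Xpr1 in each line (points, numbered by line) with the group mean (bar), for BCR-ABL1, SFPQ-ABL1 and MSCV. The axes of Fgf23 and Slc34a3 are logarithmic. Fgf23 runs from 4.08 to 40.6 CPM in BCR-ABL1 lines and stays at or under 0.481 CPM in the other 8 lines, while Slc34a3 stays at or under 1.19 CPM in BCR-ABL1 lines.

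The comparison of SFPQ-ABL1 with MSCV cells was not itself used in the choice and was tested. It shares the MSCV lines that were used, so its tests of Fgf23 and Slc34a3 are not free of the choice. Fgf23 was not called there, with a log2 fold change of 1.04 ± 0.94 SE, a 95% interval of -0.99 to 3.06 and an adjusted p = 0.590 (edgeR quasi-likelihood test, Benjamini-Hochberg over 17197 genes). In the exon table, Fgf23 counts fell on all 3 of its annotated exons in BCR-ABL1 cells, where the exon counts made up 24.9% of the gene's counts. The first exon (127072902 to 127073240) had 53 counts, the second (127078140 to 127078243) 20 and the third (127080038 to 127081408) 987. The third exon thus held 93.1% of the exon counts, the BCR-ABL1 lines pooled, and 75.6% of the exon length. The 95% Wilson interval of its share, 91.4 to 94.5, covers counting error only and not the spread between lines. BCR-ABL1 line 4 alone gave 36, 15 and 596 of the counts on the 3 exons, and line 1 gave 2, 0 and 75. SFPQ-ABL1 lines had 1, 1 and 19 counts on these exons, and MSCV lines 0, 0 and 6. No other gene shared these exons.

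Slc34a3 (ENSMUSG00000006469, chromosome 2, 25228898 to 25234364, minus strand) ran the other way. It had 0.647, 0.301, 0.501 and 1.19 CPM in BCR-ABL1 lines 1 to 4, 7.27, 2.68, 14.9 and 11.8 CPM in SFPQ-ABL1 lines 1 to 4, and 12.8, 10.4, 21.3 and 22.6 CPM in MSCV lines 1 to 4. All BCR-ABL1 lines lay below all other lines, and the SFPQ-ABL1 and MSCV lines overlapped, with SFPQ-ABL1 line 2 the lowest of these 8. The group means were 0.661 ± 0.382 CPM with BCR-ABL1, 9.15 ± 5.32 with SFPQ-ABL1 and 16.8 ± 6.07 with MSCV (SD, n = 4 each). BCR-ABL1 cells held 25.5-fold less than MSCV cells (log2 fold change -4.67 ± 0.55 SE), place 4 from the lowest among all genes. SFPQ-ABL1 cells were at a log2 fold change of 3.80 ± 0.54 SE relative to BCR-ABL1 cells, and of 4.54 without both SFPQ-ABL1 line 2 and BCR-ABL1 line 4.

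In the tested comparison, SFPQ-ABL1 against MSCV, Slc34a3 had a log2 fold change of -0.87 ± 0.46 SE (95% interval -1.87 to 0.12). It was not called (edgeR adjusted p = 0.333). Of the alternatives run, only a replicate block called it (edgeR adjusted p = 0.0499). Its last exon (25228898 to 25229515), the longest, had 4 counts in BCR-ABL1 lines, 55 in SFPQ-ABL1 lines and 74 in MSCV lines. An internal exon (25232147 to 25232290) had 0, 9 and 40 counts, and the first coding-transcript exon (25234180 to 25234364) 0, 5 and 4, in the same order of groups. On the last and the internal exon every BCR-ABL1 line had fewer counts than any other line, while on the first exon SFPQ-ABL1 line 3 and MSCV lines 2 and 3 had none either. Slc34a2 (ENSMUSG00000029188, chromosome 5), the intestinal and lung family member, had 1 count in BCR-ABL1 line 2 and none in the other 11 libraries, where the limit of 3 counts stood at 0.0365 to 0.0491 CPM. Slc34a1, the remaining family member of the kidney, was on the list of other phosphate genes and averaged 0.274 CPM with BCR-ABL1, 0.172 with SFPQ-ABL1 and 0.370 with MSCV.

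The SLC20 importers were higher in level. Slc20a1 (ENSMUSG00000027397, chromosome 2) had 94.0, 79.6, 91.1 and 125 CPM in BCR-ABL1 lines 1 to 4, 74.1, 50.9, 57.3 and 57.3 CPM in SFPQ-ABL1 lines 1 to 4, and 63.7, 36.3, 42.3 and 39.3 CPM in MSCV lines 1 to 4. BCR-ABL1 lines all lay above both other groups, which overlapped. The means were 97.4 ± 19.4 CPM with BCR-ABL1, 59.9 ± 9.93 with SFPQ-ABL1 and 45.4 ± 12.4 with MSCV (SD, n = 4 each), and BCR-ABL1 cells held 2.15-fold more than MSCV cells (log2 fold change 1.10 ± 0.19 SE). With SFPQ-ABL1 against BCR-ABL1 Slc20a1 was lower, with a log2 fold change of -0.70 ± 0.19 SE (edgeR adjusted p = 0.0150; 0.00248 to 0.0942 over the alternatives). The call was lost without both SFPQ-ABL1 line 2 and BCR-ABL1 line 4, at a log2 fold change of -0.49 and an edgeR adjusted p = 0.0942. Against MSCV, SFPQ-ABL1 cells had a log2 fold change of 0.40 ± 0.19 SE (95% interval -0.00 to 0.80, edgeR adjusted p = 0.271).

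Slc20a2 (ENSMUSG00000037656, chromosome 8) differed less. It had 30.9, 25.8, 32.9 and 31.2 CPM in BCR-ABL1 lines 1 to 4, 26.4, 30.1, 25.5 and 24.6 CPM in SFPQ-ABL1 lines 1 to 4, and 29.98, 19.0, 19.1 and 19.2 CPM in MSCV lines 1 to 4. MSCV line 1 lay within the range of the fusion lines and the other MSCV lines below them all. The log2 fold change was 0.47 ± 0.15 SE with BCR-ABL1 against MSCV, where the lines overlapped. It was 0.29 ± 0.15 SE with SFPQ-ABL1 against MSCV (95% interval -0.03 to 0.61, edgeR adjusted p = 0.317), and 0.49 without MSCV line 1, when the gene passed the test (edgeR adjusted p = 0.0439; 0.0439 to 0.541 over the alternatives). With SFPQ-ABL1 against BCR-ABL1 it was -0.18 ± 0.15 SE (95% interval -0.50 to 0.14, edgeR adjusted p = 0.394).

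The exporter gene Xpr1 (ENSMUSG00000026469, chromosome 1, minus strand) had 101, 169, 128 and 135 CPM in BCR-ABL1 lines 1 to 4, 95.7, 119, 123 and 127 CPM in SFPQ-ABL1 lines 1 to 4, and 99.4, 89.0, 105 and 102 CPM in MSCV lines 1 to 4. Line 1 was the lowest of both fusion groups and lay within the range of the MSCV lines. The log2 fold change was 0.43 ± 0.14 SE with BCR-ABL1 against MSCV. It was 0.23 ± 0.14 SE with SFPQ-ABL1 against MSCV (95% interval -0.07 to 0.53, edgeR adjusted p = 0.400) and -0.20 ± 0.14 SE with SFPQ-ABL1 against BCR-ABL1 (95% interval -0.50 to 0.10, edgeR adjusted p = 0.313). Slc20a1, Slc20a2, Slc34a2 and Xpr1 lie over genes of the opposite strand. Whether counting used strand is not given in the sources used here, so reads of such pairs cannot be told apart. For Slc20a1 these were Gm4430 (3.86 CPM with BCR-ABL1, 5.38 with SFPQ-ABL1 and 3.54 with MSCV) and 9830144P21Rik (3.19, 2.98 and 2.06 CPM in the same order of groups). For Slc20a2 the gene was Smim19, with 13.1 CPM with BCR-ABL1, 10.9 with SFPQ-ABL1 and 12.2 with MSCV. Gm17491, inside Slc20a2 on the same strand, had 11.2, 9.44 and 9.13 CPM in the same order of groups. For Xpr1 the gene was Gm22569, with at most 0.0269 CPM in any line.

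**Figure D2:**
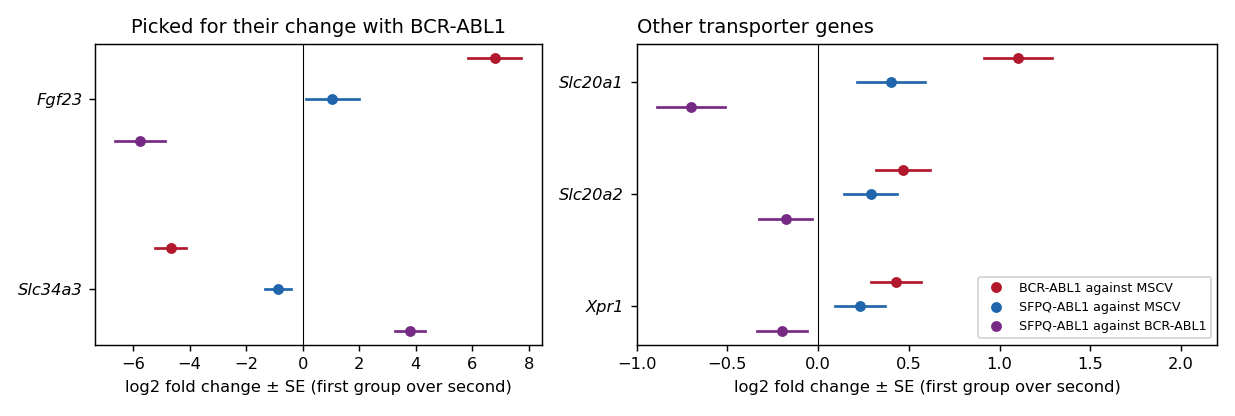
Log2 fold change (x axis, first group over second, bars ± SE) of the 5 measured members, for each fusion against MSCV and for SFPQ-ABL1 against BCR-ABL1. Fgf23 is at 6.80 and Slc34a3 at -4.67 with BCR-ABL1 against MSCV, and Slc20a1, Slc20a2 and Xpr1 lie between -0.70 and 1.10 in all comparisons.

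Set beside the background, 5 of 5 tested members passed an adjusted p under 0.05 with BCR-ABL1 against MSCV, where 32.1% of all genes did. The choice itself fixed Fgf23 and Slc34a3 among these 5, so nothing is read from the count. It was 3 of 5 without BCR-ABL1 line 3 or 4, without MSCV line 2 or 4, or without both BCR-ABL1 line 4 and SFPQ-ABL1 line 2. The BCR-ABL1 and MSCV lines did not overlap for Fgf23 and Slc20a1, higher as 15.7% of all genes were, and for Slc34a3, lower as 16.0% were. With SFPQ-ABL1 against MSCV, 0 of 5 members passed the edgeR test, where 1.79% of all genes did, and 0 of the 5 had an unadjusted p under 0.05. Other tools also called 0 of 5, DESeq2 and limma-voom included, while a replicate block called Slc34a3 and leaving out MSCV line 1 called Slc20a2. With SFPQ-ABL1 against BCR-ABL1, Slc20a1 passed and Slc20a2 and Xpr1 did not, where 26.0% of all genes passed. Fgf23 and Slc34a3 also passed there, but on the BCR-ABL1 values that led to their choice. The comparisons with MSCV share the MSCV lines, and both comparisons that hold BCR-ABL1 share its lines.

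Per kilobase of exon, the order of the genes differed between groups. These levels divide all counts of a gene by its exon length. The part of the counts found in the exon table varies by gene, which was not corrected for. It was 24.9% for Fgf23 in BCR-ABL1 cells, against 18.0% over all genes and libraries. In BCR-ABL1 cells Slc20a1 led with 17.5 ± 3.47 CPM per kilobase, followed by Fgf23 with 8.81 ± 9.17, Xpr1 with 7.45 ± 1.57, Slc20a2 with 4.86 ± 0.491 and Slc34a3 with 0.280 ± 0.162. The range of Fgf23, 2.25 to 22.4, overlapped those of Slc20a1, Xpr1 and Slc20a2. Its place rests on BCR-ABL1 line 4. Lines 1 to 3 had 2.25, 4.86 and 5.75 CPM per kilobase of Fgf23, each below Xpr1 in the same line, and averaged 4.29, below the 7.42 of Xpr1 and the 4.81 of Slc20a2 in these lines. In SFPQ-ABL1 cells Slc20a1 stood at 10.7 ± 1.78, Xpr1 at 6.49 ± 0.778, Slc20a2 at 4.29 ± 0.384, Slc34a3 at 3.88 ± 2.26 and Fgf23 at 0.164 ± 0.113 CPM per kilobase. Slc34a3 there overlapped both Slc20a2 and Xpr1. In MSCV cells the order was Slc20a1 at 8.13 ± 2.23, Slc34a3 at 7.11 ± 2.57, Xpr1 at 5.53 ± 0.392, Slc20a2 at 3.51 ± 0.874 and Fgf23 at 0.0807 ± 0.0876 CPM per kilobase, and Slc34a3 overlapped Slc20a1, Xpr1 and Slc20a2. With the longest transcript as the length, Xpr1 moved above Fgf23 in BCR-ABL1 cells (17.8 against 8.81 CPM per kilobase) and above Slc34a3 in MSCV cells (13.2 against 7.68). Among 12087 protein-coding genes tested, 57.7% had a lower level per kilobase than Fgf23 in BCR-ABL1 cells (39.4% without line 4) and 5.998% in MSCV cells. For Slc34a3 these shares were 12.6% in BCR-ABL1 cells and 52.5% in MSCV cells.

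**Figure D3:**
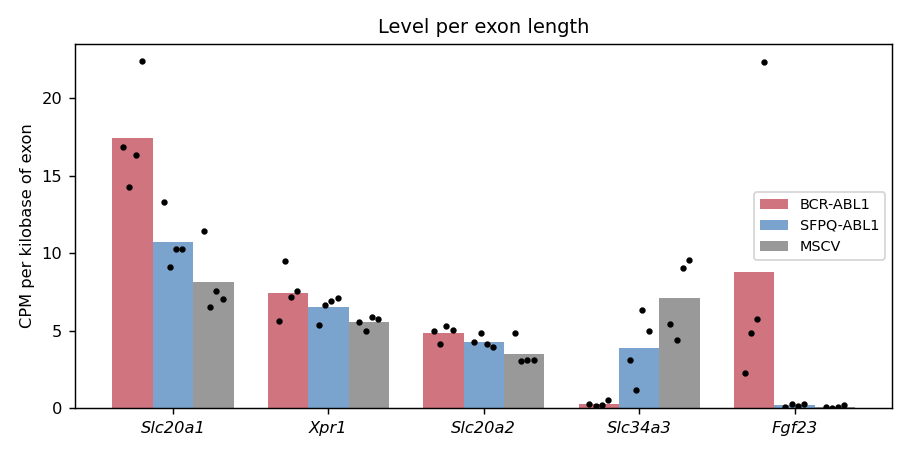
CPM per kilobase of exon for 5 members (bars, group means; points, lines) in BCR-ABL1, SFPQ-ABL1 and MSCV. Slc20a1 has the highest mean of each group, and Fgf23 reaches 8.81 with BCR-ABL1 but 0.164 with SFPQ-ABL1 and 0.0807 with MSCV.

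Genes next to Fgf23 and Slc34a3 on the chromosome were set beside them. Fgf6, another FGF family gene, lies 44714 bases away at lower coordinates and had 0.189, 0.329, 0.288 and 0.589 CPM in BCR-ABL1 lines 1 to 4. It had 95 counts in BCR-ABL1 lines, 1 in SFPQ-ABL1 lines and 1 in MSCV lines, a ratio of levels of 100.8 to MSCV (exact 95% counting interval 17.67 to 4024). Tigar, a regulator of glycolysis, lies 3707 bases away at higher coordinates and averaged 6.78 ± 1.07 CPM with BCR-ABL1, 4.17 ± 1.06 with SFPQ-ABL1 and 2.64 ± 0.885 with MSCV (SD, n = 4 each). Ccnd2, which encodes cyclin D2 and lies 43753 bases away, averaged 351 ± 15.0 CPM with BCR-ABL1, 163 ± 19.6 with SFPQ-ABL1 and 148 ± 14.6 with MSCV. Of the 6 nearest coding neighbours of Fgf23, Rad51ap1, D6Wsu163e, Tigar, Ccnd2 and Parp11 were higher in every BCR-ABL1 line than in every MSCV line, where 15.7% of all genes were. Fgf6 was too, but it passed the filter on low counts only through its BCR-ABL1 lines and so had to differ.

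At the Slc34a3 locus, Rnf224 lies 111 bases away, upstream on the same strand. It encodes a RING finger protein and averaged 0.407 ± 0.182 CPM with BCR-ABL1, 6.01 ± 2.44 with SFPQ-ABL1 and 9.22 ± 3.005 with MSCV (SD, n = 4 each), a log2 fold change of -4.50 ± 0.40 SE with BCR-ABL1 against MSCV. Cysrt1, 4453 bases away, averaged 0.0677 ± 0.0250 CPM with BCR-ABL1, 0.796 ± 0.374 with SFPQ-ABL1 and 1.54 ± 0.619 with MSCV. Rnf208, 7890 bases away on the opposite strand, averaged 0.117 ± 0.0248 CPM with BCR-ABL1, 0.679 ± 0.388 with SFPQ-ABL1 and 1.81 ± 0.532 with MSCV. These 3 genes on one side of Slc34a3 were each low in all BCR-ABL1 lines. Cysrt1 and Rnf208 overlap on opposite strands, so their reads cannot be wholly told apart. On the side of the last exon, Tubb4b, a tubulin gene 4195 bases away, averaged 360 ± 56.5 CPM with BCR-ABL1, 630 ± 70.9 with SFPQ-ABL1 and 597 ± 66.3 with MSCV. Of the 6 coding neighbours of Slc34a3, 4 were lower in every BCR-ABL1 line than in every MSCV line, where 16.0% of all genes were. The 4 hold the overlapping pair Cysrt1 and Rnf208, and Tubb4b, which overlaps the neighbour Fam166a on the opposite strand. Stpg3 did not pass the filter on low counts.

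**Figure D4:**
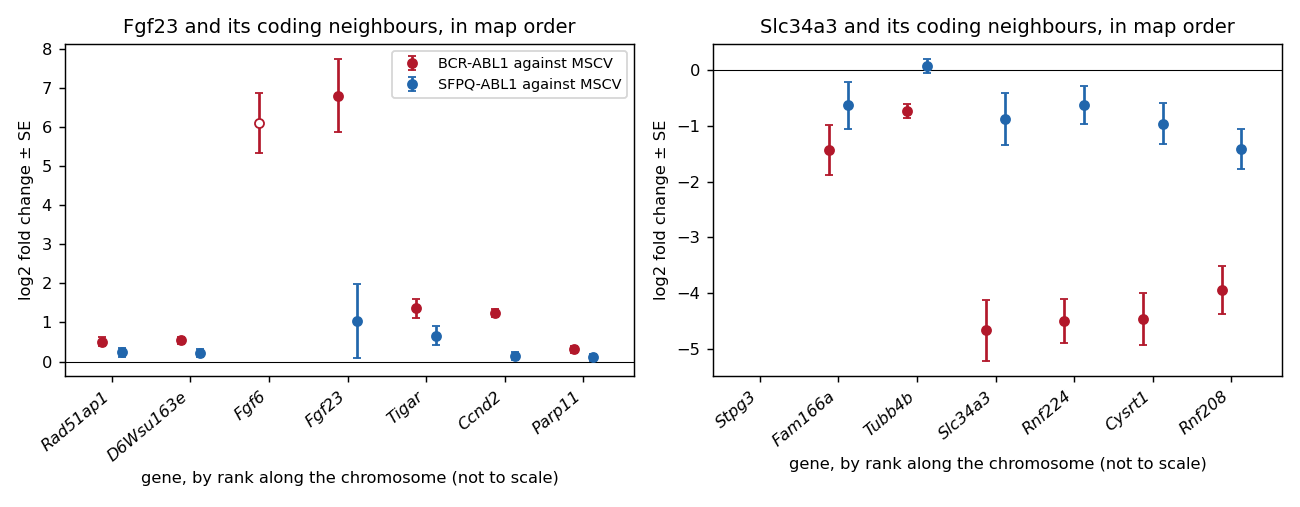
Log2 fold change (y axis, bars ± SE) of Fgf23 and Slc34a3 and their nearest coding neighbours in map order, for BCR-ABL1 against MSCV and SFPQ-ABL1 against MSCV. The open point of Fgf6 rests on 1 count in MSCV lines, its value for SFPQ-ABL1 is left out, and Stpg3 was not tested. Slc34a3, Rnf224, Cysrt1 and Rnf208 lie at -3.94 or lower with BCR-ABL1 against MSCV.

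The genes whose pattern was most like that of each gene were found by the root-mean-square difference of log2 CPM, each gene centred on its mean over the 12 libraries, among 11643 coding genes. For Fgf23 they were Pf4 (0.77 log2 units), Cox6a2 (0.90), Car6 (0.96), Cxcl3 (0.98) and Lcn2 (1.02), against a median of 3.08 over all genes. Pf4, a platelet chemokine gene, averaged 6.88 ± 4.29 CPM with BCR-ABL1, 0.116 ± 0.0827 with SFPQ-ABL1 and 0.125 ± 0.112 with MSCV (SD, n = 4 each). Lcn2, which encodes an iron-scavenging lipocalin, had 4.003, 12.7, 14.6 and 67.7 CPM in BCR-ABL1 lines 1 to 4 and at most 1.49 CPM in the other lines. BCR-ABL1 line 4 was the highest line for Fgf23, Fgf6, Pf4, Cox6a2, Car6 and Lcn2, and line 2 for Cxcl3. The 5 genes were picked for likeness to Fgf23 over these same lines, so nothing is read from a shared highest line. Pf4, Cox6a2, Car6 and Cxcl3 stayed at or under 0.360 CPM outside BCR-ABL1 lines and rest on few counts there. For Slc34a3 the nearest genes were Rnf224 (0.43), Cysrt1 (0.66), Mettl7a1 (0.76), Gpr160 (0.78) and Rnf208 (0.84), against a median of 2.15. Of these 5, Rnf224, Cysrt1 and Rnf208 are the map neighbours described above, and Mettl7a1 and Gpr160 lie on other chromosomes. Mettl7a1 has close relatives with which reads can be shared.

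Other genes of phosphate and FGF23 biology were taken from a list of 51, of which 29 were tested and 22 had too few counts. Among the genes too low to test were Klotho (Kl) and the FGF receptor genes Fgfr2, Fgfr3 and Fgfr4. With BCR-ABL1 against MSCV, 8 of 29 were called, 2 higher and 6 lower, a share of 27.6% against 32.1% of all genes, with a median log2 fold change of -0.14 against -0.01 over all genes. The count was 4 without BCR-ABL1 line 2 and 5 without MSCV line 3. With SFPQ-ABL1 against MSCV the edgeR test called 0 of 29, against 1.79% of all genes, and 7 of 29 had an unadjusted p under 0.05, against 18.6% of all genes. DESeq2 and limma-voom also called 0. With SFPQ-ABL1 against BCR-ABL1, 4 of 29 were called, 2 higher and 2 lower, a share of 13.8% against 26.0% of all genes.

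The scaffold genes Slc9a3r1 (NHERF1) and Slc9a3r2 (NHERF2), which encode proteins that anchor membrane transporters, phosphate transporters among them, were both higher with SFPQ-ABL1 than with BCR-ABL1. Slc9a3r1 averaged 165 ± 6.60 CPM with SFPQ-ABL1 and 83.6 ± 13.1 with BCR-ABL1 (log2 fold change 0.98 ± 0.13 SE, edgeR adjusted p = 0.000334), and stood at 205 ± 36.0 with MSCV (SD, n = 4 each). Slc9a3r2 averaged 17.2 ± 2.09 CPM with SFPQ-ABL1 and 8.96 ± 1.51 with BCR-ABL1 (log2 fold change 0.94 ± 0.13 SE, edgeR adjusted p = 0.000353), and stood at 20.4 ± 0.997 with MSCV. The glycosyltransferase gene Galnt3, whose product protects FGF23 from cleavage, was lower, with 30.2 ± 4.41 CPM with SFPQ-ABL1 and 52.7 ± 8.15 with BCR-ABL1 (log2 fold change -0.80 ± 0.14 SE, edgeR adjusted p = 0.00128), beside 29.3 ± 3.76 with MSCV. Slc37a2, a sugar-phosphate carrier gene, was lower too, with 0.280 ± 0.0937 CPM with SFPQ-ABL1 and 1.28 ± 0.339 with BCR-ABL1 (log2 fold change -2.18 ± 0.36 SE, edgeR adjusted p = 0.000987), beside 0.583 ± 0.253 with MSCV. All 4 kept their call under every alternative run.

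With BCR-ABL1 against MSCV, the largest called differences on the list were Nt5e (log2 fold change -1.69 ± 0.57 SE), Slc9a3r1 (-1.29 ± 0.13 SE), Slc9a3r2 (-1.18 ± 0.13 SE), Slc37a2 (1.13 ± 0.34 SE), Phex (-1.06 ± 0.38 SE) and Galnt3 (0.85 ± 0.14 SE). Nt5e encodes a surface enzyme that releases phosphate from AMP, and Phex an endopeptidase whose loss raises FGF23 in bone. Both were low throughout, Nt5e at 0.214 CPM with BCR-ABL1 and 0.698 with MSCV, and Phex at 0.171 CPM with BCR-ABL1 and 0.361 with MSCV. Without MSCV line 4 the log2 fold change of Nt5e was -0.92. Furin, the protease gene linked to FGF23 cleavage, averaged 408 ± 153 CPM with BCR-ABL1, 261 ± 63.5 with SFPQ-ABL1 and 349 ± 56.7 with MSCV. Slc25a3, the mitochondrial phosphate carrier gene, stood at 349, 350 and 344 CPM in the same order of groups.

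**Figure D5:**
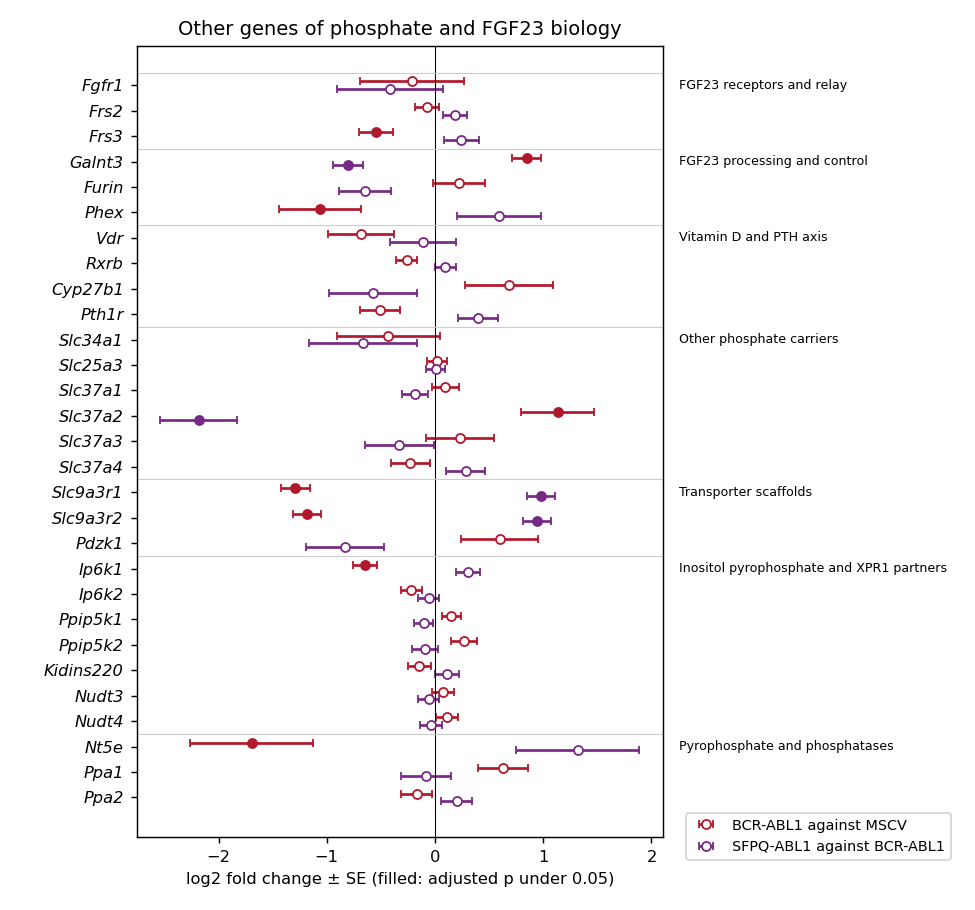
Log2 fold change (x axis, bars ± SE) of the 29 tested genes of phosphate and FGF23 biology, grouped by role, in BCR-ABL1 cells relative to MSCV cells and in SFPQ-ABL1 cells relative to BCR-ABL1 cells. Filled points have an adjusted p under 0.05 (8 and 4 genes); Slc9a3r1 and Slc9a3r2 lie below 0 in the first comparison and above 0 in the second.

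Markers of bone and of the kidney proximal tubule, where Fgf23 and Slc34a3 are best known, were at or near 0. Of 10 osteoblast and osteocyte genes none exceeded 5 CPM in a group, Dmp1 and Ibsp had no count in any library, and the list summed to 0.697 to 1.16 CPM in BCR-ABL1 lines, 0.603 to 1.40 in SFPQ-ABL1 lines and 1.12 to 1.83 in MSCV lines. Of 8 kidney tubule genes, mainly of the proximal tubule, none exceeded 5 CPM. Their list summed to 0.496 to 0.890 CPM in BCR-ABL1 lines, 0.362 to 0.701 in SFPQ-ABL1 lines and 0.740 to 1.41 in MSCV lines. The early B sum, given above, was lowest in BCR-ABL1 lines, as Slc34a3 was, and its part in these results was not tested. Of 8 erythroid genes 5 exceeded 5 CPM (Gata1, Klf1, Hba-a1, Hbb-bs and Epor), and the list summed to 185 to 626 CPM in BCR-ABL1 lines, 266 to 1252 in SFPQ-ABL1 lines and 433 to 1147 in MSCV lines. Of 8 myeloid and mast cell genes 3 exceeded 5 CPM (Mpo, Lyz2 and Cpa3), and the list summed to 24.2 to 60.1 CPM in BCR-ABL1 lines, 41.8 to 97.7 in SFPQ-ABL1 lines and 30.9 to 61.5 in MSCV lines. Cpa3 did so through BCR-ABL1 line 2 alone, at 42.2 CPM, and had at most 4.75 CPM in any other line. Of 7 genes of the alveolar type 2 cell, in which Slc34a2 is known, Abca3 and Napsa exceeded 5 CPM, the surfactant genes Sftpc, Sftpb, Sftpa1 and Sftpd had at most 50 counts each over all libraries, and the list summed to 136 to 181 CPM in BCR-ABL1 lines, 184 to 348 in SFPQ-ABL1 lines and 199 to 283 in MSCV lines.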

How the data were processed

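Total RNA of 12 Ba/F3 lines was sequenced, 4 lines in each of 3 groups named by the labels. The submitters' processing notes name Subread, featureCounts and mm10. Their versions, the annotation release and the strand setting: not given in the sources used here. Deposited by the authors were raw counts of each gene and each exon, not normalized. Exon counts, scaled by the gene totals, summed to 18.0% of the gene counts, a gap that the labels do not explain, so they hold only part of the reads. Symbols and positions came from GENCODE M21 on mm10, and start regions from RefSeq (GRCm38.p6).

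The gene counts were fitted with edgeR 4.0.16 in R 4.3.3 (filterByExpr, TMM, glmQLFit and glmQLFTest, two-sided, group as the only term, all 12 libraries). Calls used an adjusted p under 0.05 (Benjamini-Hochberg, 17197 genes). CPM are TMM-scaled and given as mean ± SD. The test was first tested on simulated data. limma 3.58.1 (limma-voom), DESeq2 1.42.0 and other alternatives were run. Replicate pairs differed beyond sampling noise (chi-square per degree of freedom 33.1 to 182 over 18 pairs).

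The members and gene lists were chosen with earlier results of these data known. Genes named were the members, the 3 nearest coding neighbours on each side of Fgf23 and Slc34a3, the 5 genes most like each, pathway genes called (up to 6 per comparison) and markers above 5 CPM. Furin, Slc25a3, Slc34a1 and the genes named as too low to test were named outside this rule, after their values were seen. No p is given for the members in the comparison that chose them, nor for Fgf23 and Slc34a3 between the fusions.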

Additional observations from a re-analysis of the deposited data

Results flagged for a closer look

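Slc20a2 in MSCV line 1 stood at 29.98 CPM, while MSCV lines 2 to 4 had 19.0, 19.1 and 19.2 CPM. It was marked because its gap to the nearest line was too large a part of the range of its group by Dixon's criterion. Of 15 groups of 4 lines tested, 1 was marked, and chance marks about 1 in 20.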

How the results depend on the processing

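No result reversed under the alternatives run: DESeq2, limma-voom, no library factors, no filter on low counts, a replicate block, a fit of the 8 libraries compared alone, leaving out each line, and leaving out both SFPQ-ABL1 line 2 and BCR-ABL1 line 4, the last chosen after seeing the data, as were the levels per kilobase without BCR-ABL1 line 4. With SFPQ-ABL1 against MSCV, 308 genes were called, against 1131 with DESeq2, 726 with the replicate block, 110 in the fit of 8 libraries, 498 without both lines and 33 to 467 without single lines. Calls among the members there were 0, with 1 under the replicate block (Slc34a3, log2 fold change -1.03, edgeR adjusted p = 0.0499) and 0 to 1 without single lines; pathway calls were 0, with 1 under the block and 0 to 0 without single lines. With BCR-ABL1 against MSCV, the comparison that chose Fgf23 and Slc34a3, 5 members were called, against 3 without both lines and 3 to 5 without single lines, and 8 pathway genes, against 4 to 10 without single lines. The causes were not tested. The length of the longest transcript gave means over the 12 lines of 20.4 CPM per kilobase for Slc20a1, 7.36 for Slc20a2 and 15.5 for Xpr1. Same-numbered lines had correlations of -0.01 to 0.38 (7 of 12 pairs over 0.1), so the numbers were not taken to pair the lines. As a hint from the data, 9 of 12 libraries correlated best with their own number. Depth limits Slc34a2, Fgf6 and Fgf23 outside BCR-ABL1 cells, which rest on few counts.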
